A study of Homo sapiens with 40 samples.

Results

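CA9 and 9 further genes known from the response to low oxygen were followed through knockdown of 3 histone gene regulators in 2 human cell lines. The 10 genes are 10 of the 22069 Ensembl genes of the table. They were chosen by a fixed list of identifiers that was drawn up with values of these arrays in view, and the comparison behind that choice was not recorded. CA9 (ENSG00000107159_at), for which the set is named, is therefore given by its values alone, without a test. The 9 further genes come from the same list and were tested. Their p-values and counts of calls are therefore not independent of that choice and are descriptions. The other 9 are CA12 (ENSG00000074410_at), VEGFA (ENSG00000112715_at), ADM (ENSG00000148926_at), NDRG1 (ENSG00000104419_at), SLC2A1 (ENSG00000117394_at), PDK1 (ENSG00000152256_at), BNIP3 (ENSG00000176171_at), EGLN3 (ENSG00000129521_at) and ANGPTL4 (ENSG00000167772_at). All 10 had a value on every array, and none was removed by a filter.

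Cells read the oxygen level through prolyl hydroxylases, which mark the alpha subunits of the hypoxia-inducible factors (HIF) for destruction while oxygen is present. When oxygen falls, the stabilized subunit pairs with ARNT and binds short DNA motifs called hypoxia response elements near its target genes. The targets move metabolism towards glycolysis, export acid, call in blood vessels and remove mitochondria. CA9 encodes carbonic anhydrase IX, an enzyme of the cell surface that hydrates carbon dioxide and is widely used as a tissue marker of hypoxia. Several of these genes also answer to other signals, such as nutrients, stress and crowding of the culture.

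U2OS cells come from an osteosarcoma, and hTERT-RPE1 cells from normal retinal pigment epithelium immortalized by telomerase. Per the study's methods U2OS cells were grown in DMEM, and hTERT-RPE1 cells in a mix of F12 and DMEM with hygromycin B. Medium and cell line therefore cannot be told apart. No label names a culture at low oxygen. Pools of siRNAs at 15 nM were directed against CASP8AP2, NPAT or HINFP, or held a control that targets none of them, so the control cells were transfected too. Control and CASP8AP2 siRNA were profiled on days 1 and 2 with 3 arrays per group (24 arrays), and all 4 pools on day 3 with 2 arrays per group (16 arrays), which makes 16 groups. The study asked whether a normal and a tumor line respond differently to the loss of these regulators. Each line is a single cell line, so a difference between them cannot be ascribed to normal or tumor origin in general.

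Array means ranged from 6.00 to 6.05 in the days 1 and 2 set and from 5.85 to 5.88 in the day 3 set, so the sets were taken as normalized separately and no level was tested across them. Values are on the log2 scale, where a difference of 1 is a doubling, and they were not compared between genes. The standard error (SE) of a difference comes from the limma fit, with 1 spread per gene shared by all groups of the set. It can be smaller than the spread of the compared arrays alone would give. The siRNAs left between 30.1% and 59.1% of the targeted transcript in the 10 comparisons, with no overlap between siRNA and control arrays. CASP8AP2 siRNA left 55.5%, 59.1% and 58.7% on days 1, 2 and 3 in hTERT-RPE1 cells, and 40.6%, 30.1% and 44.3% in U2OS cells. On day 3 NPAT siRNA left 40.3% in hTERT-RPE1 and 33.3% in U2OS cells, and HINFP siRNA 48.4% and 32.0%. Every siRNA thus left more of its target in hTERT-RPE1 than in U2OS cells. RUNX2, the only bone marker whose identifier could be paired with its symbol, was lower in U2OS than in hTERT-RPE1 controls on day 1 (7.34 ± 0.15 against 9.57 ± 0.05, SD, n = 3). BEST1 and RLBP1, the only paired markers of retinal pigment epithelium, had control means between 3.55 and 4.28 in both lines. An array gives 1 value per culture, so fewer cells that express a gene and less RNA per cell cannot be told apart. Both arrays of a day 3 group came from one transfection session per the study's methods, so p-values of day 3 measure a spread without variation between experiments. The methods do not say how the 3 cultures of a group on days 1 and 2 were made, so the same limit may hold for those p-values.

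Promoter sequence is shown first because HIF is known to reach its targets through this motif, although the arrays did not measure binding. Sequences are the 250 bases before the gene start in RefSeq, build GRCh38.p14, and at least 1 window was found for 8 of the 10 genes (all but VEGFA and NDRG1). The core of the hypoxia response element was searched as ACGTG and GCGTG on both strands. Of all 35116 windows of this length, 43.2% held at least 1 match. Of the 8 genes, 6 held a match in any of their windows. PDK1 had 2 windows, 1 of them without a match, so the count by gene is not of the same unit as the share of windows. The stretches below hold the matches of CA9, ADM, ANGPTL4 and BNIP3, which carried the largest differences or the most matches, written 5′ to 3′ on the gene's strand with the matches in capitals. A match on the opposite strand reads CACGT or CACGC.
CA9: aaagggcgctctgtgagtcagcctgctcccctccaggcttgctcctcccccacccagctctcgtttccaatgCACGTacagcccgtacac
ADM: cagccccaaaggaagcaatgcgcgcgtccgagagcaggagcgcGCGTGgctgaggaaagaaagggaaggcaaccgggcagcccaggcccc
ANGPTL4: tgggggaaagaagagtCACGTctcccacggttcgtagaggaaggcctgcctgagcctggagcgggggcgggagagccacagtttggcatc
BNIP3: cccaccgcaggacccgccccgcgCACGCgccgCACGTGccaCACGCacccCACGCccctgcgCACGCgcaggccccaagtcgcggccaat

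The CA9 stretch lies at chr9:35673838-35673927 on the forward strand, and its single match covers bases -18 to -14 counted from the gene start. The ADM stretch lies at chr11:10304929-10305018 on the forward strand, with its match at bases -101 to -97. The ANGPTL4 stretch lies at chr19:8363905-8363994 on the forward strand, with its match at bases -234 to -230. The BNIP3 stretch lies at chr10:131982000-131982089 on the reverse strand and holds 6 matches between bases -143 and -100, of which a pair on opposite strands overlap in CACGTG. CA12 held 1 match, PDK1 held 2 in the second of its 2 windows, and the windows of SLC2A1 and EGLN3 held none. A match is a description of these letters and not evidence of binding.

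The largest changes fell on different members in the 2 lines. In hTERT-RPE1 cells, ANGPTL4, a secreted inhibitor of lipoprotein lipase, and NDRG1, a stress-responsive gene of the NDRG family, rose under CASP8AP2 siRNA, ANGPTL4 by 7.97-fold and NDRG1 by 3.43-fold on day 3. In U2OS cells ADM, which encodes the vasodilator peptide adrenomedullin, rose under all 3 siRNAs on day 3, by 3.84-fold with CASP8AP2, 4.45-fold with NPAT and 2.52-fold with HINFP siRNA. CA9 was at least 6.44-fold higher in hTERT-RPE1 than in U2OS control cells on every day. In hTERT-RPE1 cells CA9 was 2.46-fold lower with NPAT siRNA than with control siRNA on day 3.

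Every siRNA group was set against the control group of its line and day, and a gene was called at a limma adjusted p under 0.05 over all 22069 genes. Shares of all genes count calls in either direction throughout, also where the members are given in 1 direction. In hTERT-RPE1 cells CASP8AP2 siRNA changed 1 of the 9 tested members on day 1, when 0.793% of all genes were called, and 2 without control replicate 2. On day 2 it raised 2 of 9, with 6.40% of all genes called (937 higher and 476 lower). On day 3 it raised 2 of 9, with 6.15% of all genes called (798 higher and 560 lower). NPAT siRNA lowered 1 of 9 there, with 5.04% of all genes called. HINFP siRNA raised 4 and lowered 1 of 9, with 4.15% of all genes called, and none of these 5 was called when the model was fitted to the arrays of that comparison alone (here called the restricted fit). Of these calls, those of VEGFA, ADM and PDK1 were lost without control replicate 1 and also without HINFP replicate 1. Those of VEGFA and PDK1 were lost without HINFP replicate 2.

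In U2OS cells CASP8AP2 siRNA raised 4 of the 9 members on day 1, with 5.87% of all genes called. On day 2 it raised 6 and lowered 1, with 24.9% of all genes called. On day 3 it raised 4 of 9, with 18.9% of all genes called (1746 higher and 2419 lower). NPAT siRNA raised 2 of 9 (8.13% of all genes), and HINFP siRNA raised 3 and lowered 1 (9.43%). The restricted fit gave 0 calls on day 1, and 2 each for CASP8AP2 and HINFP siRNA on day 3. Without control replicate 1 the day 3 counts were 2 for CASP8AP2 and 2 for HINFP siRNA, and the HINFP count was also 2 without control replicate 2 or HINFP replicate 2. The median log2 difference of the 9 members lay between 0.01 (NPAT siRNA) and 0.47 (HINFP siRNA) in hTERT-RPE1 cells and between 0.14 and 0.37 in U2OS cells. That of all genes lay between -0.03 and 0.02 in the 10 comparisons. The 3 siRNA comparisons of a line on day 3 share their control arrays, so they are not independent.

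**Figure D1:**
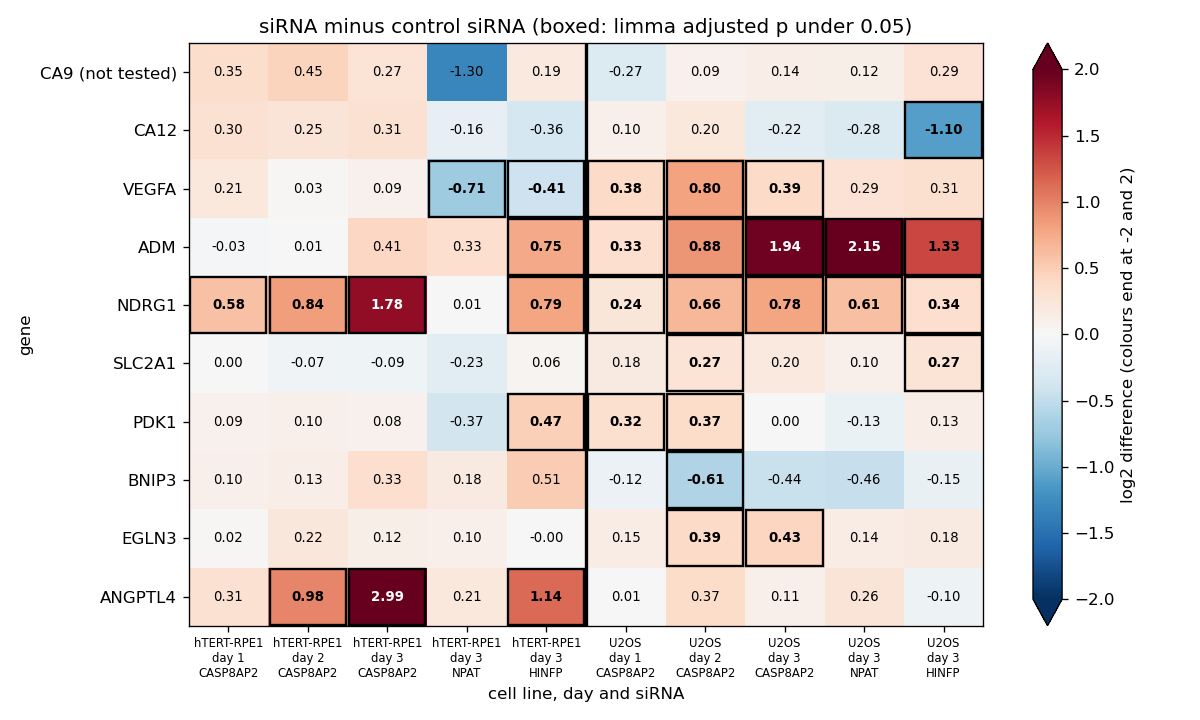
Log2 difference of each siRNA from control siRNA (columns, by cell line, day and siRNA) for the 10 genes (rows), with red for higher and blue for lower values and boxes where the limma adjusted p was under 0.05. ANGPTL4 and NDRG1 carry the largest values in hTERT-RPE1 cells (2.99 and 1.78), and ADM in U2OS cells (up to 2.15). CA9 was not tested.

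CA9 separated the lines more than any siRNA changed it. In hTERT-RPE1 control cells it read 8.10, 8.29 and 8.25 on day 1 and 9.33, 9.94 and 9.36 on day 2, and 9.88 and 9.35 on day 3. The days 1 and 2 did not overlap, and the difference was 1.33 (SE 0.14). In U2OS control cells CA9 read 5.74, 5.18 and 5.66 on day 1, 5.36, 4.99 and 5.24 on day 2, and 5.16 and 5.01 on day 3. Every hTERT-RPE1 array lay above every U2OS array of its set, with control differences (U2OS minus hTERT-RPE1) of -2.69 on day 1, -4.35 on day 2 and -4.53 on day 3. Whether the U2OS values lie above the array background was not tested, since no detection call was used here.

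CASP8AP2 siRNA moved CA9 little. In hTERT-RPE1 cells the siRNA arrays read 8.42, 8.66 and 8.60 on day 1 and 9.94, 10.05 and 9.99 on day 2, above all controls of the same day. The differences were 0.35 on day 1 and 0.45 on day 2 (SE 0.14 each), and the highest control of day 2 (9.94) was close to the lowest siRNA array. On day 3 they read 9.84 and 9.93 and overlapped the controls, as did the HINFP arrays at 9.72 and 9.89. NPAT siRNA gave 8.18 and 8.45, below both controls and all other hTERT-RPE1 arrays of that day, with a difference of -1.30 (SE 0.18). The controls of that day had an SD of 0.37. In U2OS cells the CASP8AP2 arrays read 5.30, 5.22 and 5.24 on day 1, 5.36, 5.14 and 5.36 on day 2 and 5.48 and 4.97 on day 3, all overlapping their controls. NPAT siRNA gave 5.33 and 5.09 there, which also overlapped. HINFP siRNA gave 5.43 and 5.31, just above the controls at a difference of 0.29 (SE 0.18).

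By its group means on days 1 and 2, CA9 was ordered from the 4 U2OS groups to hTERT-RPE1 control day 1, CASP8AP2 day 1, control day 2 and CASP8AP2 day 2. Neighbours among the U2OS groups overlapped, while the arrays did not overlap at any step within hTERT-RPE1, at the last step only barely. On day 3 the order was the 4 U2OS groups, then hTERT-RPE1 NPAT, control, HINFP and CASP8AP2 siRNA. The gap from U2OS to NPAT siRNA (2.94) and from NPAT to control siRNA (1.30) did not overlap, and the last 3 groups overlapped with their neighbours.

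**Figure D2:**
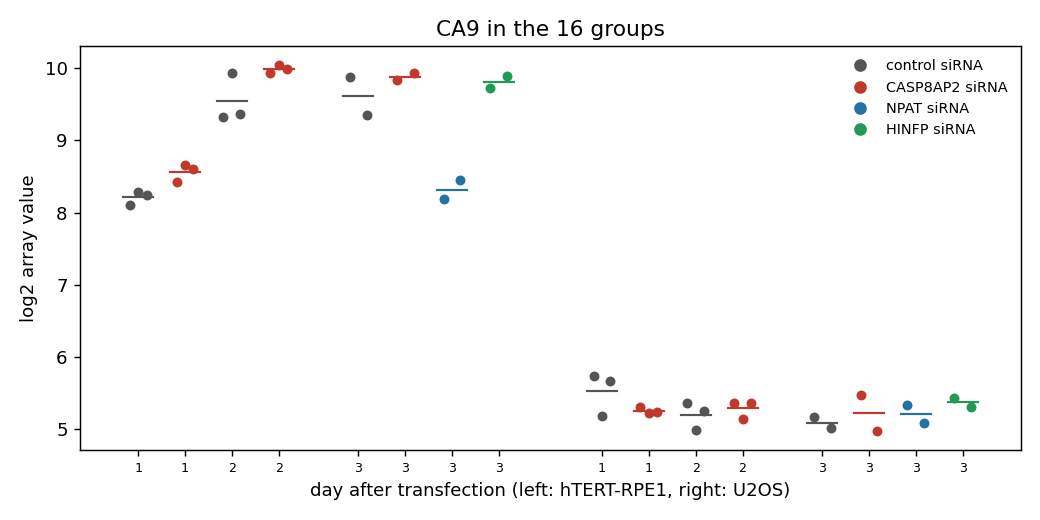
CA9 on each of the 40 arrays (points, log2 array value) with the group mean (line), by day after transfection, with hTERT-RPE1 on the left and U2OS on the right. Days 1 and 2 and day 3 were taken as normalized separately. hTERT-RPE1 arrays lie between 8.10 and 10.05 and U2OS arrays between 4.97 and 5.74, and the NPAT siRNA arrays lie below the other hTERT-RPE1 arrays of day 3.

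Genes with a pattern like that of CA9 were ranked by Pearson's r over the 16 group means, after the mean of the 4 groups of the same line and set had been subtracted. The closest were ENSG00000133321 (r = 0.937) and ENSG00000141959 (r = 0.909), for which no symbol was paired. Of the members, PDK1 was closest (r = 0.819, rank 32 of the other genes), followed by NDRG1 (r = 0.676, rank 226). SLC2A1 (0.406), BNIP3 (0.373), VEGFA (0.313) and EGLN3 (0.256) followed, and ANGPTL4 (0.136), ADM (0.0849) and CA12 (0.0394) were lowest. The points share arrays and control groups, so these are descriptions. CA9 group means spanned 5.20 to 5.53 (days 1 and 2) and 5.09 to 5.37 (day 3) in U2OS cells. In hTERT-RPE1 cells they spanned 8.21 to 9.99 and 8.31 to 9.88, so these r values rest mainly on the hTERT-RPE1 groups. With only the set mean subtracted, which keeps the difference between lines, PDK1 was at r = 0.988 and CA12 at r = -0.939.

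CA12 encodes carbonic anhydrase XII, the other surface enzyme of the family that hypoxia induces. Its levels ran opposite to those of CA9 between the lines. Control cells on day 1 read 4.68, 5.12 and 4.64 in hTERT-RPE1 and 7.44, 7.48 and 7.64 in U2OS, with no overlap and a difference of 2.71 (limma adjusted p 6.15e-15). The single call under siRNA was made in U2OS cells on day 3, where HINFP siRNA gave 6.16 and 6.06 against 7.34 and 7.09 with control siRNA. The fall was -1.10 (2.14-fold, SE 0.14, limma adjusted p 0.000445). NPAT siRNA gave 6.87 and 6.99 and CASP8AP2 siRNA 6.81 and 7.18 in the same cells, without a call (-0.28 and -0.22). In hTERT-RPE1 cells on day 3 HINFP siRNA gave 4.37 and 4.00 against 4.54 and 4.54 in controls, also without a call.

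VEGFA encodes the growth factor that drives the formation of blood vessels. By the test it rose with CASP8AP2 siRNA in U2OS cells and fell with NPAT siRNA in hTERT-RPE1 cells. In U2OS cells control arrays read 8.86, 8.90 and 8.85 on day 1 and siRNA arrays 9.42, 9.23 and 9.10, a rise of 0.38 (limma adjusted p 0.000936). On day 2 the controls read 8.81, 8.88 and 8.96 and the siRNA arrays 9.74, 9.66 and 9.66, a rise of 0.80 (1.74-fold, SE 0.07, limma adjusted p 1.25e-08). On day 3 they read 8.88 and 8.89 against 9.20 and 9.34, a rise of 0.39 (limma adjusted p 0.0172). None of the siRNA arrays overlapped the controls of its day. The day 3 call was lost without either control array (0.38 and 0.39) or CASP8AP2 replicate 2 (0.31), and in the restricted fit, which also lost the VEGFA call of day 1. The other 2 siRNAs of day 3 also gave VEGFA values above both U2OS controls, without a call. NPAT siRNA gave 9.18 and 9.17 (a difference of 0.29), and HINFP siRNA 9.12 and 9.28.

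In hTERT-RPE1 cells VEGFA read 10.60 and 10.33 with control siRNA on day 3 and 9.70 and 9.81 with NPAT siRNA, a fall of -0.71 (1.63-fold, SE 0.10, limma adjusted p 0.00207) that was lost in the restricted fit. HINFP siRNA gave 10.03 and 10.08, a fall of -0.41 (limma adjusted p 0.0397). This VEGFA call did not hold after median centring (-0.38), in the restricted fit, without control replicate 1 (-0.27) and without either HINFP array (-0.39 and -0.43). CASP8AP2 siRNA gave 10.53 and 10.58, within the range of the controls, and no call was made for it on any day in this line. On day 1, however, its arrays (10.43, 10.49 and 10.32) lay above all controls (10.22, 10.15 and 10.23).

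ADM rose with every siRNA in U2OS cells. Control arrays of day 3 read 5.86 and 5.84. CASP8AP2 siRNA gave 7.94 and 7.64, NPAT siRNA 7.90 and 8.10, and HINFP siRNA 7.00 and 7.37, all far above the controls. The rises were 1.94 (limma adjusted p 1.45e-06), 2.15 (2.01e-06) and 1.33 (5.77e-05), each with an SE of 0.13. CASP8AP2 siRNA had raised ADM before day 3, from 6.22, 6.28 and 6.03 to 6.56, 6.57 and 6.40 on day 1 (0.33, limma adjusted p 0.00555) and from 6.38, 6.47 and 6.46 to 7.34, 7.28 and 7.32 on day 2 (0.88, limma adjusted p 9.06e-09). The day 1 rise of ADM was lost in the restricted fit. The ADM effect of day 2 exceeded that of day 1 by 0.54 (SE 0.10, limma adjusted p 0.00188).

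In hTERT-RPE1 cells ADM control arrays lay between 8.58 and 9.23 over the 3 days. ADM overlapped between CASP8AP2 and control siRNA on days 1 and 2, with differences of -0.03 and 0.01. On day 3 control arrays read 8.58 and 8.78, CASP8AP2 arrays 9.03 and 9.16, and NPAT arrays 9.00 and 9.03, with differences of 0.41 and 0.33 that were not called. HINFP siRNA gave 9.48 and 9.39, a rise of 0.75 (SE 0.13, limma adjusted p 0.00907). This ADM call was lost without control replicate 1 (0.65), without HINFP replicate 1 (0.71) and in the restricted fit.

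ANGPTL4 rose with CASP8AP2 siRNA in hTERT-RPE1 cells on days 2 and 3. On day 3 both controls read 6.20 and the siRNA arrays 9.18 and 9.21, a rise of 2.99 (7.97-fold, SE 0.18, limma adjusted p 4.29e-07). On day 2 the controls read 7.03, 6.72 and 6.71 and the siRNA arrays 7.58, 7.69 and 8.14, a rise of 0.98 (SE 0.14, limma adjusted p 9.95e-05). On day 1 the controls read 8.09, 7.97 and 7.98 and the siRNA arrays 8.32, 8.33 and 8.32, which did not overlap but were not called (0.31). In the control cells ANGPTL4 fell from day 1 to day 2 by -1.19 (limma adjusted p 9.27e-06), while the siRNA arrays of day 2 lay between the day 2 and the day 1 controls, apart from 1 array at 8.14. HINFP siRNA gave 7.73 and 6.94 on day 3, a rise of 1.14 (SE 0.18, limma adjusted p 0.00467) with a wide gap between its arrays (SD 0.56). This ANGPTL4 rise was 0.74 without HINFP replicate 1, where it kept its call, and it was lost in the restricted fit. NPAT siRNA gave 6.33 and 6.50 without a call. In U2OS cells ANGPTL4 lay between 4.08 and 5.48 on all arrays and no siRNA changed it by the test. Whether these U2OS values lie above the array background was not tested.

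NDRG1 was called with CASP8AP2 siRNA on every day in both lines, each time without overlap. In hTERT-RPE1 cells it went from 8.19, 8.32 and 8.30 to 8.89, 8.83 and 8.84 on day 1, a rise of 0.58 (limma adjusted p 9.68e-06). On day 2 it went from 9.13, 9.08 and 8.93 to 9.83, 9.81 and 10.01, a rise of 0.84 (limma adjusted p 8.15e-09). On day 3 it went from 8.80 and 8.94 to 10.66 and 10.63, a rise of 1.78 (SE 0.09, limma adjusted p 7.42e-08). NPAT siRNA gave 8.86 and 8.89, within the controls. HINFP siRNA gave 9.74 and 9.58, a rise of 0.79 (limma adjusted p 0.000534) that was lost in the restricted fit.

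In U2OS cells NDRG1 went from 9.45, 9.48 and 9.34 to 9.66, 9.66 and 9.67 on day 1 (0.24, limma adjusted p 0.0208). On day 2 it went from 9.53, 9.48 and 9.59 to 10.20, 10.23 and 10.17 (0.66, limma adjusted p 4.91e-08), and on day 3 from 9.31 and 9.28 to 10.14 and 10.02 (0.78, limma adjusted p 8.81e-05). NPAT siRNA gave 9.89 and 9.91 (0.61, limma adjusted p 0.00133) and HINFP siRNA 9.57 and 9.69 (0.34, limma adjusted p 0.0286). The NDRG1 call of day 1 was lost in the restricted fit, without control replicate 3 (0.20) and without any one of the CASP8AP2 arrays (0.24 each). The HINFP call of NDRG1 was lost in that fit, without either control array (0.35 and 0.33) and without HINFP replicate 2 (0.28).

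SLC2A1 encodes the glucose transporter GLUT1, and PDK1 a kinase that keeps pyruvate out of the mitochondrion by inhibiting pyruvate dehydrogenase. Both metabolic genes moved by less than 0.50 under siRNA. SLC2A1 rose in U2OS cells with CASP8AP2 siRNA on day 2, from 11.34, 11.33 and 11.24 to 11.59, 11.53 and 11.59 (0.27, limma adjusted p 0.000564). With HINFP siRNA on day 3 SLC2A1 went from 10.88 and 10.87 to 11.08 and 11.21 (0.27, limma adjusted p 0.0495). That SLC2A1 call was lost after median centring (0.25), in the restricted fit, and without control replicate 1 (0.28), control replicate 2 (0.26), HINFP replicate 1 (0.33) or HINFP replicate 2 (0.21). In hTERT-RPE1 cells SLC2A1 lay between 11.97 and 12.47 on all arrays and no siRNA gave a call.

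PDK1 rose in U2OS cells with CASP8AP2 siRNA on the first days. It went from 7.91, 8.07 and 7.83 to 8.21, 8.31 and 8.24 on day 1 (0.32, limma adjusted p 0.00567) and from 7.86, 7.88 and 7.80 to 8.30, 8.24 and 8.10 on day 2 (0.37, limma adjusted p 0.000309). On day 3 PDK1 overlapped its controls (0.00). The day 1 call of PDK1 was lost in the restricted fit. In hTERT-RPE1 cells on day 3 PDK1 read 9.44 and 9.59 in controls and 9.98 and 9.99 with HINFP siRNA, a rise of 0.47 (limma adjusted p 0.0242). This PDK1 call was lost in that fit, without control replicate 1 (0.40) and without either HINFP array (0.48 and 0.46). NPAT siRNA gave 9.18 and 9.11, below both controls, a difference of -0.37 that was not called (limma adjusted p 0.0539).

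BNIP3 encodes a protein of the outer mitochondrial membrane that marks mitochondria for removal. CASP8AP2 siRNA lowered this member alone, and in U2OS cells of day 2 alone, from 10.21, 10.34 and 10.27 to 9.60, 9.71 and 9.68 (a difference of -0.61, SE 0.13, limma adjusted p 0.000866). On day 3 BNIP3 read 10.39 and 10.18 in these controls, 9.75 and 9.95 with CASP8AP2 siRNA and 9.77 and 9.89 with NPAT siRNA, lower without overlap but without a call (-0.44 and -0.46). In hTERT-RPE1 cells BNIP3 control arrays of day 3 were far apart, at 12.16 and 11.54, and no siRNA gave a call.

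EGLN3 encodes PHD3, a prolyl hydroxylase that acts on the HIF alpha subunits and is itself a HIF target. It rose in U2OS cells with CASP8AP2 siRNA on day 2, from 5.57, 5.84 and 5.61 to 6.13, 6.00 and 6.05 (0.39, limma adjusted p 0.00466). On day 3 EGLN3 went from 5.02 and 5.33 to 5.67 and 5.53 (0.43, limma adjusted p 0.0327). The day 3 call of EGLN3 was lost with cyclic loess (0.33), in the restricted fit, without control replicate 1 (0.27) and without CASP8AP2 replicate 1 (0.36). In hTERT-RPE1 cells EGLN3 lay between 4.36 and 4.93 on all arrays and was not called.

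**Figure D3:**
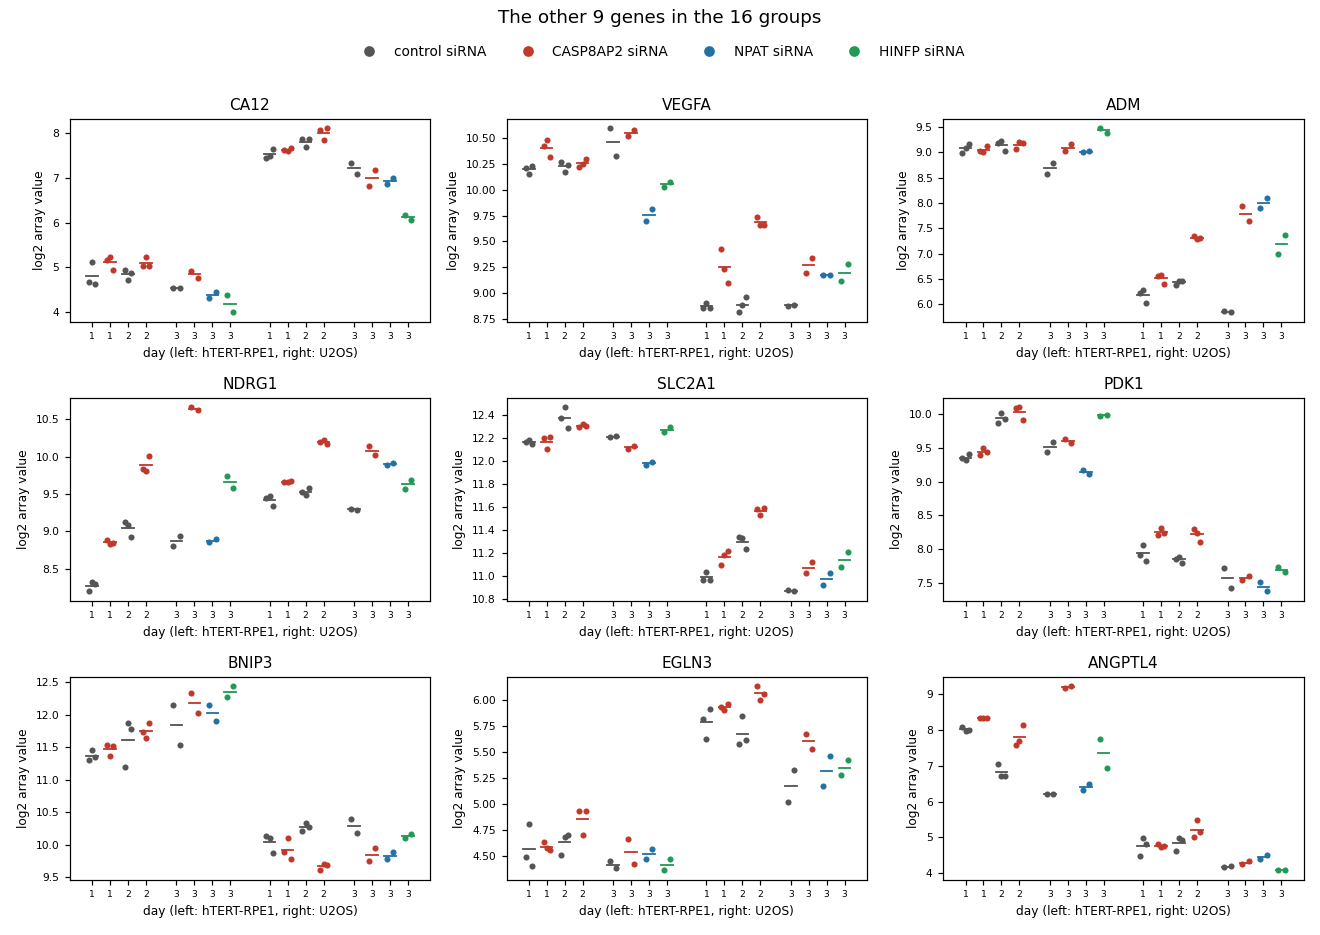
Log2 array values of the other 9 genes (points) with group means (lines), by day after transfection, with hTERT-RPE1 on the left and U2OS on the right of each panel; each panel has its own axis. ADM rises with all 3 siRNAs in U2OS cells on day 3, ANGPTL4 with CASP8AP2 siRNA in hTERT-RPE1 cells, and CA12 is higher on every U2OS array than on any hTERT-RPE1 array of the same set.

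Whether the lines differed was tested as the effect in U2OS minus the effect in hTERT-RPE1. Each siRNA left more of its target in hTERT-RPE1 than in U2OS cells on the same day. How far this entered the differences was not tested. For CASP8AP2 siRNA 0 of the 9 members were called on day 1 (0.689% of all genes), 4 on day 2 (9.39%) and 3 on day 3 (9.55%). On day 2 the difference was 0.77 for VEGFA (SE 0.09, limma adjusted p 1.23e-05), 0.87 for ADM (6.77e-06), 0.33 for SLC2A1 (0.00549) and -0.74 for BNIP3 (0.00957). On day 3 it was 1.53 for ADM (SE 0.19, limma adjusted p 0.000469), -0.99 for NDRG1 (0.000546) and -2.89 for ANGPTL4 (2.89e-05). So ADM rose more in U2OS cells, and NDRG1 and ANGPTL4 more in hTERT-RPE1 cells.

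For NPAT siRNA 3 of 9 members differed between the lines (3.46% of all genes), with 1.00 for VEGFA (limma adjusted p 0.00311), 1.82 for ADM (0.000358) and 0.60 for NDRG1 (0.0225). CA9 showed 1.42 (SE 0.26) by the same subtraction, without a test. For HINFP siRNA 2 of 9 differed (3.15% of all genes), with 0.72 for VEGFA (limma adjusted p 0.0171) and -1.24 for ANGPTL4 (0.0186). The NPAT difference of NDRG1 was lost without hTERT-RPE1 control replicate 2 (0.53), without either hTERT-RPE1 NPAT array (0.58 and 0.62), without either U2OS control array (0.61 and 0.59) and without either U2OS NPAT array (0.61 and 0.59). The HINFP difference of VEGFA was lost in the restricted fit, without either hTERT-RPE1 HINFP array (0.70 and 0.75), without U2OS control replicate 1 (0.72) and without U2OS HINFP replicate 2 (0.64). That of ANGPTL4 was lost in that fit, without U2OS control replicate 1 (-1.25), control replicate 2 (-1.23) or HINFP replicate 2 (-1.23).

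**Figure D4:**
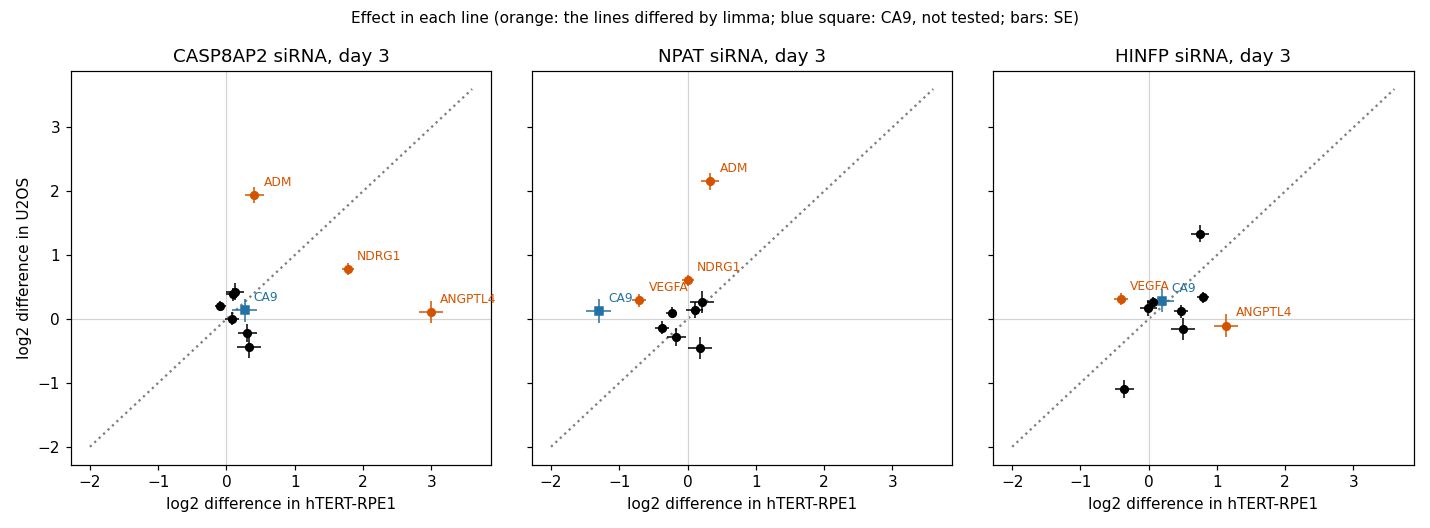
Log2 difference from control siRNA on day 3 in hTERT-RPE1 (horizontal axis) and U2OS cells (vertical axis) for each gene and siRNA, with bars of 1 SE, a dotted line of equal effects, orange for genes whose effects differed between lines by limma and a blue square for the untested CA9. ADM lies above the line for CASP8AP2 and NPAT siRNA, and ANGPTL4 lies to the right of it for CASP8AP2 and HINFP siRNA.

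The change of the CASP8AP2 effect from day 1 to day 2 was called for 0 of 9 members in hTERT-RPE1 cells (0.652% of all genes). In U2OS cells 3 of 9 were called (7.04%), all growing, with 0.42 for VEGFA (limma adjusted p 0.0086), 0.54 for ADM and 0.42 for NDRG1 (0.00411).

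The members also moved with time in control cells. From day 1 to day 2, 3 members rose and 1 fell of 9 in hTERT-RPE1 cells (10.0% of all genes called). NDRG1 rose by 0.77 (limma adjusted p 4.92e-08), PDK1 by 0.59 (7.17e-06) and SLC2A1 by 0.21 (0.0129), and ANGPTL4 fell as given above. CA9 rose there by 1.33 without a test. The SLC2A1 rise was lost in the restricted fit, without day 1 replicate 3 (0.20) and without day 2 replicate 2 (0.16). In U2OS cells 2 of 9 rose (13.0% of all genes), SLC2A1 by 0.31 (limma adjusted p 0.000322) and ADM by 0.26 (0.0199). The ADM rise with time was lost after median centring (0.22), in a joint fit of all 40 arrays, in the restricted fit, without day 1 replicate 3 (0.18) and without day 2 replicate 2 (0.24) or replicate 3 (0.25).

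Between the control cells of the lines all 9 members differed on each day, when 48.7% (day 1), 50.8% (day 2) and 43.8% (day 3) of all genes were called. The culture medium differed between the lines too, and its share was not tested. CA12, NDRG1 and EGLN3 were higher in U2OS cells, by 2.67, 0.43 and 0.75 on day 3. VEGFA (-1.58), ADM (-2.83), SLC2A1 (-1.34), PDK1 (-1.95), BNIP3 (-1.56) and ANGPTL4 (-2.01) were lower in U2OS than in hTERT-RPE1 cells on that day, with no overlap of the arrays. The highest limma adjusted p of these 9 differences on day 3 was 0.00126, for NDRG1. Centring the arrays on their median moved the median of all genes to -0.125, -0.182 and -0.105 on days 1, 2 and 3, and all 27 calls kept their direction and their call under it.

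The siRNAs of day 3 were also compared with each other, a choice made after the values were seen. In hTERT-RPE1 cells CASP8AP2 siRNA exceeded NPAT siRNA for 4 of 9 members (2.38% of all genes called, 388 higher and 137 lower). It exceeded HINFP siRNA for 4 (3.81%, 559 higher and 281 lower). NPAT siRNA was below HINFP siRNA for 3 (3.63%, 455 higher and 346 lower). ANGPTL4 was 2.78 higher with CASP8AP2 than with NPAT siRNA (limma adjusted p 2.07e-06) and 1.85 higher than with HINFP siRNA (5.61e-05). NDRG1 was 1.77 and 0.99 higher (2.85e-07 and 3.68e-05). The other calls of CASP8AP2 against HINFP siRNA, CA12 (0.66) and VEGFA (0.50), were both lost in the restricted fit, without either CASP8AP2 array and without HINFP replicate 2, and that of VEGFA also without HINFP replicate 1. PDK1 (0.45 against NPAT siRNA) was lost in the restricted fit and without any one of the 4 arrays compared, and ANGPTL4 (-0.93 for NPAT minus HINFP siRNA) in the restricted fit, without either NPAT array and without HINFP replicate 1. In U2OS cells CASP8AP2 and NPAT siRNA differed for 0 of 9 members (3.50% of all genes), and ADM differed by -0.21 (SE 0.13, limma adjusted p 0.467). HINFP siRNA was below CASP8AP2 siRNA for 3 of 9 (5.60% of all genes) and below NPAT siRNA for 2 (4.04%). CA12 was 0.88 higher with CASP8AP2 than with HINFP siRNA (limma adjusted p 0.00381). ADM (0.61) and NDRG1 (0.45) were the other 2 calls of this comparison, both lost without CASP8AP2 replicate 1 or HINFP replicate 1, and none of the 3 was called in the restricted fit. Both calls of NPAT against HINFP siRNA, CA12 (0.82) and ADM (0.82), were lost without NPAT replicate 2, that of CA12 also without HINFP replicate 2 and that of ADM also in the restricted fit.

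Other genes of the pathway could be named only in part, since 8.51% of the genes of the table had a paired symbol. Of the oxygen-sensing machinery 3 of 15 genes were paired, of glycolysis 3 of 20, of other hypoxia targets 6 of 27 and of the remaining carbonic anhydrases 6 of 13. None of the 3 glycolysis genes was called in any of the 10 siRNA comparisons. In hTERT-RPE1 cells 2 of the 6 other hypoxia targets rose and none fell with CASP8AP2 siRNA on day 2 (6.40% of all genes called), with CASP8AP2 siRNA on day 3 (6.15%) and with HINFP siRNA (4.15%). With CASP8AP2 siRNA on day 1 0 of the 6 were called (0.793% of all genes), and with NPAT siRNA none rose and 1 fell (5.04%). The 2 that rose were P4HA2, a collagen prolyl hydroxylase, and MXI1, an antagonist of MYC, named after their values were seen. P4HA2 rose by 0.32, 0.61 and 0.49 and MXI1 by 0.35, 0.55 and 0.65 in the 3 comparisons where both were called in this line. In U2OS cells CASP8AP2 siRNA gave 0 calls among the 6 on day 1 (5.87% of all genes), 2 that rose and 1 that fell on day 2 (24.9%), and 1 of each on day 3 (18.9%). NPAT siRNA gave 1 that rose (8.13%) and HINFP siRNA 1 that fell (9.43%). Of the 6 carbonic anhydrases CASP8AP2 siRNA raised 1, 2 and 0 on days 1, 2 and 3 in hTERT-RPE1 and 1, 2 and 2 in U2OS cells, and lowered none. The shares of all genes are those given above. NPAT siRNA lowered 1 of the 6 in hTERT-RPE1 cells (5.04%) and raised 1 in U2OS cells (8.13%). HINFP siRNA gave 0 calls in hTERT-RPE1 cells (4.15%), and 1 that rose and 1 that fell in U2OS cells (9.43%). Over the 10 comparisons of an siRNA with control, the largest call among them was that of CA2, a cytosolic enzyme. It rose by 1.29 (SE 0.198, limma adjusted p 0.00194) with NPAT siRNA in U2OS cells.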

How the data were processed

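Gene expression was measured on 40 Affymetrix arrays of U2OS and hTERT-RPE1 cells. The authors normalized the arrays with RMA (per the labels' processing notes) and the Bioconductor package affy with a custom probe grouping, and deposited log2 values, 1 per Ensembl gene and array. The build and the version of the probe grouping are not given in the sources used here. Array values are relative, so a shift in total RNA per cell would not show, and changes of dim genes are understated. The number of arrays limits the precision.

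Groups were taken from the labels. Tests used limma 3.58.1 (lmFit and eBayes, default settings) in R 4.3.3, fitted separately to the 24 arrays of days 1 and 2 (16 residual degrees of freedom) and the 16 arrays of day 3 (8), two-sided, with Benjamini-Hochberg adjustment over 22069 genes, and calls at an adjusted p under 0.05. The procedure was tested on simulated data. The members and gene lists were chosen with earlier results of these data known. All 10 members are named, list genes only where a call reached an absolute log2 difference of 1 or where said otherwise. Comparisons between siRNAs were added after the values were seen. Symbols of other genes came from the authors' pairing (1879 genes). Promoters came from RefSeq tables. Alternatives were median centring, cyclic loess, a filter at a mean of 5, a replicate block, other sets of arrays in the fit and leaving out each array.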

Additional observations from a re-analysis of the deposited data

Results flagged for a closer look

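In 15 cases the effect of an siRNA on a member differed between the cell lines or between days by limma's test of the difference itself (Benjamini-Hochberg adjusted p under 0.05 over all genes). For CASP8AP2 siRNA on day 2 the effect in U2OS minus that in hTERT-RPE1 cells was 0.772 for VEGFA, 0.872 for ADM, 0.334 for SLC2A1 and -0.738 for BNIP3 on the log2 scale. On day 3 it was 1.53 for ADM, -0.991 for NDRG1 and -2.89 for ANGPTL4.

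For NPAT siRNA the difference between lines was 0.999 for VEGFA, 1.82 for ADM and 0.600 for NDRG1, and for HINFP siRNA it was 0.723 for VEGFA and -1.24 for ANGPTL4. In U2OS cells the CASP8AP2 effect on day 2 minus that on day 1 was 0.420 for VEGFA, 0.545 for ADM and 0.423 for NDRG1. The line comparison rests on 1 tumor and 1 normal line, and what sets the difference was not tested. Knockdown was weaker in hTERT-RPE1 than in U2OS cells, and ANGPTL4 was dim in U2OS cells.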

How the results depend on the processing

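No called difference of a member changed direction under any alternative. Of 96 called differences (planned and added), median centring kept 93, cyclic loess 95, the fit of all 40 arrays 95, and the filter at a mean of at least 5 all 94 it could test, since EGLN3 on day 3 fell below that mean. The filter took the mean over both lines, so a gene that is dim in 1 line could pass. On day 3 CA12 (control mean 4.54 in hTERT-RPE1 cells) and ANGPTL4 (4.19 in U2OS cells) passed in this way. The filter therefore cannot tell whether dim values matter for their calls. A restricted fit of the compared arrays alone kept 70, and 75 kept their call whichever single array was left out. This restricted fit has fewer arrays from which to estimate the spread. The number of members called (of 9) in hTERT-RPE1 cells moved for NPAT siRNA from 1 to 2 with cyclic loess, 2 with the filter, 4 with all 40 arrays and 0 with the restricted fit, and for HINFP siRNA from 5 to 0 with the restricted fit. In U2OS cells the restricted fit moved it for CASP8AP2 siRNA from 4 to 0 on day 1 and from 4 to 2 on day 3, and for HINFP siRNA from 4 to 2. The cause was not tested.

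Leaving out 1 array gave counts between 1 and 2 (hTERT-RPE1 CASP8AP2 day 1), 2 and 2 (day 2), 2 and 3 (day 3), 1 and 1 (NPAT) and 2 and 5 (HINFP). In U2OS cells it gave 3 to 4 (CASP8AP2 day 1), 7 to 8 (day 2), 2 to 3 (day 3), 2 to 2 (NPAT) and 2 to 3 (HINFP). Where 2 arrays per group were compared, the remaining array was assumed to vary like those of the other groups.

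The labels share replicate numbers. On days 1 and 2 the correlations of the deviations of same-numbered arrays lay between -0.102 and 0.0579, and 2 of 12 siRNA arrays correlated best with the control of their own number. On day 3 they lay between -0.125 and 0.205, over 0.1 in 1 of 6 pairs of groups in hTERT-RPE1 and 4 of 6 in U2OS cells. With the replicate block the members called were 1, 2, 2, 1 and 5 in hTERT-RPE1 and 4, 7, 4, 2 and 4 in U2OS cells, as without it, and all 96 calls were kept.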
